A study of Bos taurus with 16 samples.

Results

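The genes described here encode the enzymes that remove superoxide and peroxides and that make, use and recycle glutathione, with the regulators of their transcription. They were chosen as a list of 39 gene symbols, and a gene was taken wherever the symbol stood in the deposited table of mRNA values. In this way 37 of the 39 were found among the 27233 genes of the table; SOD2 and GSTO1 were not analysed here. GSTM1 was the only symbol on more than 1 row, and the row with the higher mean was used.

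Superoxide is a by-product of electron transfer, including the electron transfer that drives steroid synthesis in mitochondria. Superoxide dismutases turn it into hydrogen peroxide, which catalase, the glutathione peroxidases and the peroxiredoxins then reduce. Glutathione and thioredoxin supply the electrons and are themselves reduced again with NADPH, while the transcription factor NRF2, held in check by KEAP1, drives many of these genes. The corpus luteum, the gland that secretes progesterone after ovulation, is rich in such enzymes, and its regression at the end of an infertile cycle is accompanied by oxidative stress.

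Whole corpora lutea came from 16 cattle found to be pregnant, with 4 taken at each of 4 stages: day 14, 17, 20 or 23, counted from breeding. All animals had been mated to a bull and inseminated 12 h later. All 4 groups are pregnant and are labelled by day alone, so each comparison below is between days of pregnancy, with no animals that were not pregnant. Libraries held 28.7 to 44.6 M reads recovered from the values (median 33.9 M), and the p-values measure the spread between these 16 cattle.

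The tissue carried its defining transcripts at high levels. STAR, which moves cholesterol into mitochondria, had a mean RPKM of 2836, and HSD3B1, which makes progesterone, 5143. RPKM is a read number scaled by the length of the gene and by the total of the library, so that levels can be compared between genes. Of 10 markers of follicle and surface epithelium, FSHR, CYP19A1 and AMH, which granulosa cells of the follicle express, had means of 2.19, 1.84 and 1.43 RPKM. FOXL2, KRT8 and MSLN were higher, at 32.5, 29.2 and 22.4 RPKM, and the 10 summed to 64.0 to 128 RPKM in a library. In whole tissue, fewer cells of a type and less RNA per cell cannot be told apart.

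The antioxidant genes were abundant and spanned a wide range of levels. GSTA1, an alpha-class glutathione transferase, was the highest with a mean RPKM of 1790 over the 16 libraries. GPX4, the glutathione peroxidase that reduces lipid peroxides within membranes, followed at 618, PRDX2, a cytosolic peroxiredoxin, at 372 and PRDX3, the mitochondrial peroxiredoxin, at 277. GSR, the enzyme that reduces oxidised glutathione, was the lowest but 1, at 9.46. GSTP1, the pi-class transferase, stayed between 0.09 and 0.98 RPKM in all 16 libraries, from 4 to 48 reads each, and was left out of the tests. The remaining 36 genes had at least 1 RPKM in all 16 libraries. Together the 37 genes took 0.69% to 1.04% of the reads of a library.

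**Figure D1:**
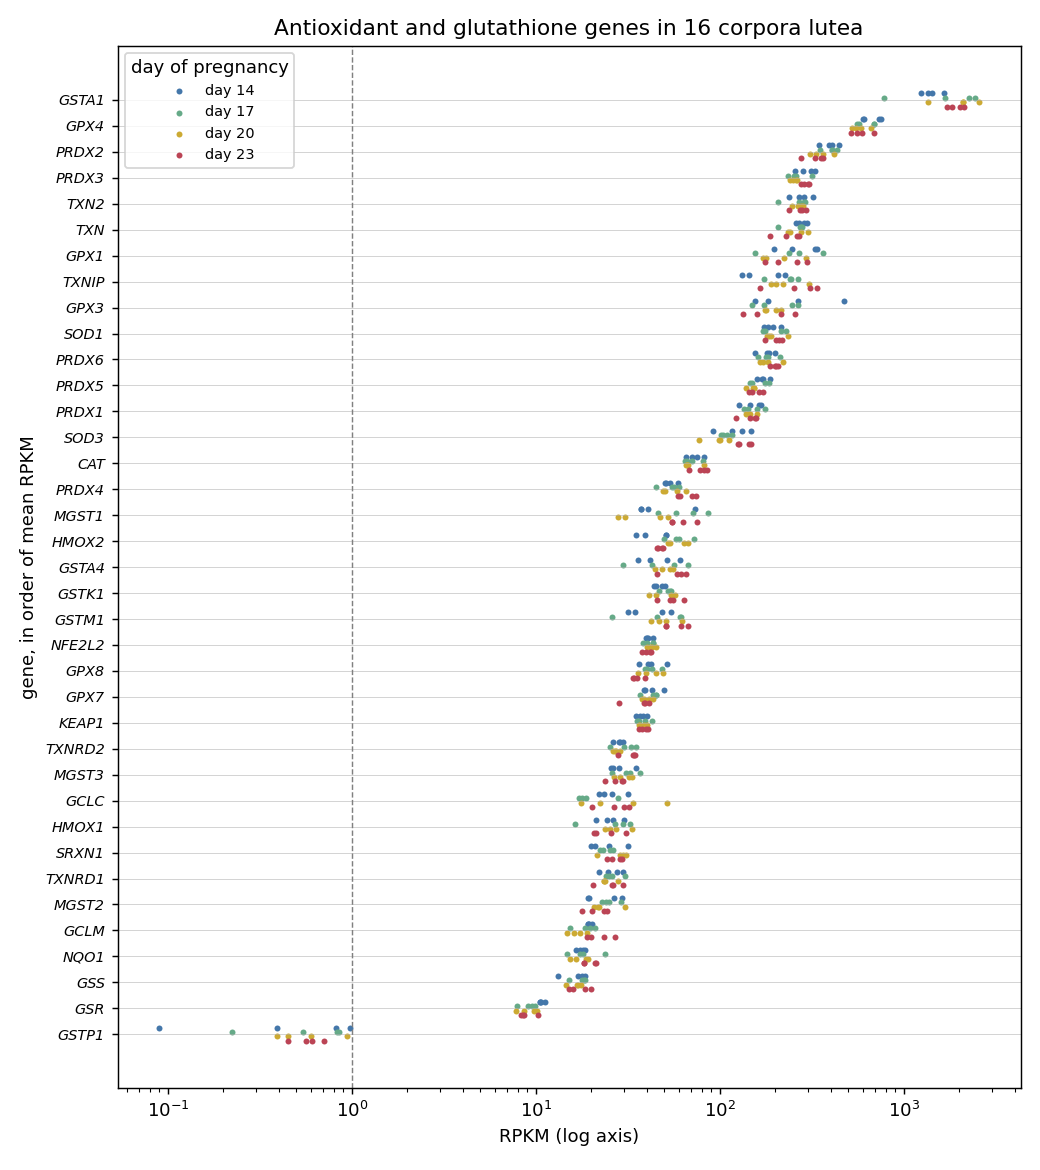
RPKM of the 37 genes (vertical axis, in order of mean RPKM) on a log axis; each point is 1 animal, coloured by day, and the dashed line marks an RPKM of 1. GSTA1 stands at the top with a mean of 1790 RPKM, GSTP1 is the only gene below the line, and for most genes the points of the 4 days lie over each other.

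No antioxidant gene differed between days past the threshold. The test was limma on log2(RPKM + 1), fitted to 13361 genes with 36 of the 37 among them, and p-values were adjusted over all genes tested (Benjamini-Hochberg, threshold 0.05). In each of the 6 comparisons between days, and in the F test over the 4 days, 0 of 36 genes passed, against 0% of the 13361 genes. With voom on the recovered reads 0 of 36 passed as well. The smallest adjusted p of these genes was 0.26, for PRDX4 on day 23 against day 14 (limma), and the F test gave HMOX2 the smallest, also 0.26.

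Unadjusted p-values under 0.05 were read against their share among all genes tested. On day 17 against day 14 they were found in 2 of 36 genes, 1 higher and 1 lower, against a background of 7.57%. The count was 5 on day 20 against day 14, with 1 higher and 4 lower (background 8.11%), and 6 on day 23 against day 14, with 3 each way (background 12.6%). Between the later days it was 1 for day 20 against day 17 (background 8.17%), 6 for day 23 against day 17 (background 11.7%) and 7 for day 23 against day 20 (background 7%). The F test gave 4 of 36 genes against a background of 11.7%. As shares of the 36 these counts were 2.78% to 19.4%. The day 23 against day 20 count was the one farthest above its background, with 6 genes higher and 1 lower. Voom gave 2, 5, 4, 1, 6 and 7 genes in the 6 comparisons in that order, and 4 in the F test.

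Medians over the list lay near 0. The median log2 fold change of the 36 genes against day 14 was 0.01 on day 17, -0.01 on day 20 and 0.05 on day 23, beside 0.01, -0.01 and -0.03 for all genes tested. Of the 36 genes, 23, 16 and 19 had values above day 14 on days 17, 20 and 23. These splits depend on the scaling, since with median-ratio scaling they were 16, 18 and 22. For 25 of the 36 genes the 95% interval of the fold change lay within 1.5-fold in all 6 comparisons. It reached beyond 1.5-fold in all 6 for GCLC, GPX1, GPX3, GSTA1 and GSTM1, and in 1 to 5 of them for MGST1, TXNIP, HMOX2, GSTA4, SOD3 and GCLM.

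**Figure D2:**
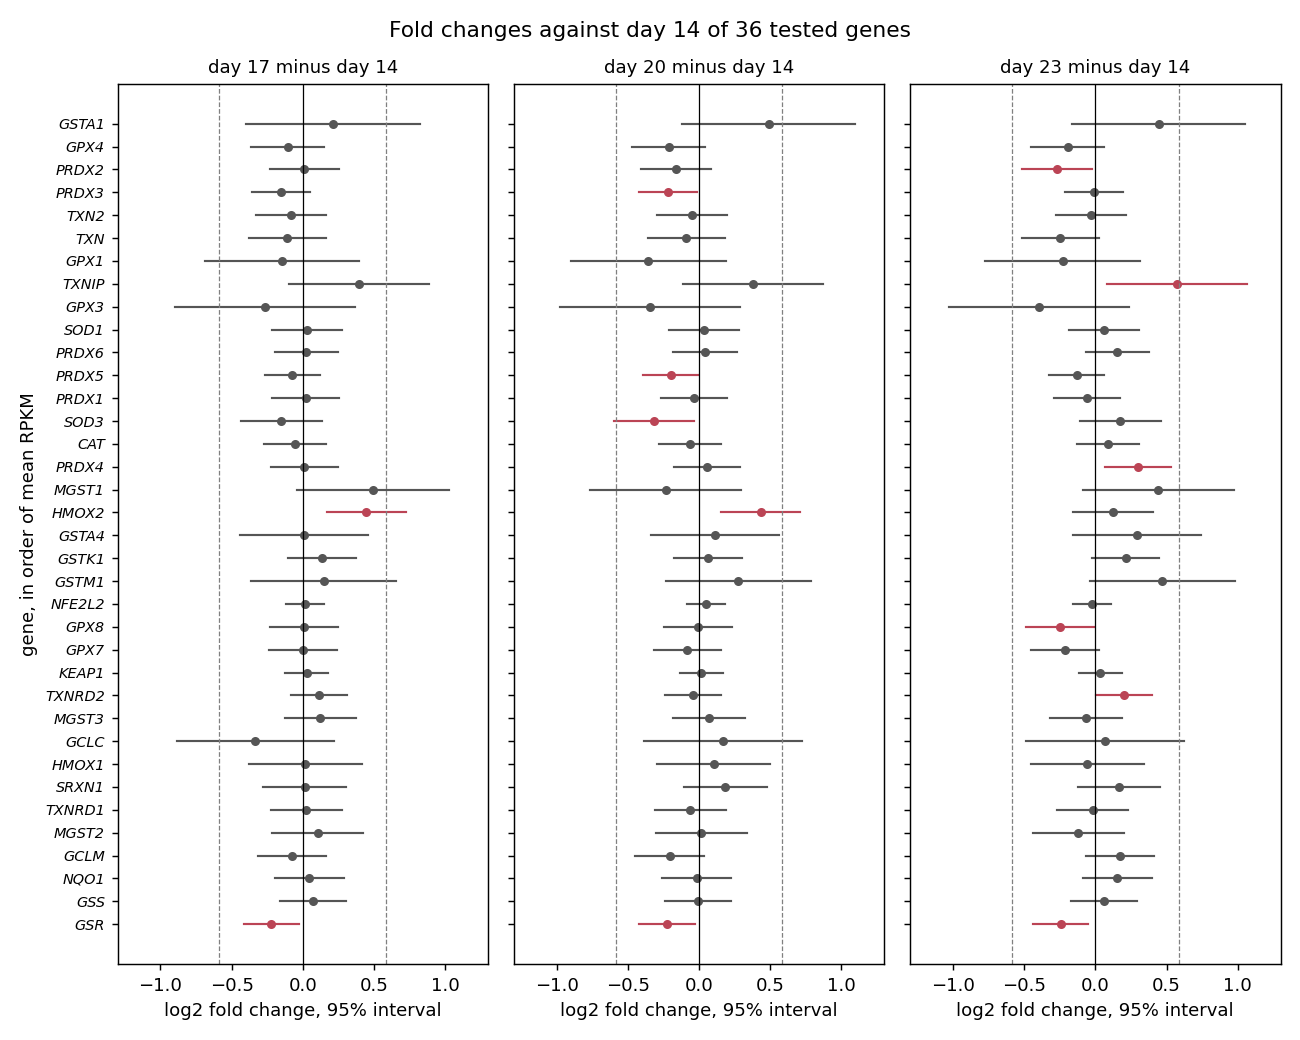
Log2 fold changes of log2(RPKM + 1) against day 14 for the 36 tested genes (vertical axis, in order of mean RPKM), on days 17, 20 and 23; points are estimates, bars 95% intervals, dashed lines 1.5-fold either way, and red marks an unadjusted p under 0.05. Red points number 2, 5 and 6 in the 3 panels, and GSR is red in all of them.

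Superoxide dismutases come first in the pathway. SOD1, the cytosolic enzyme, had even levels, with day means of 192 to 201 RPKM and 171 to 235 RPKM over all libraries. SOD3, the enzyme secreted to the extracellular space, was less even. Its RPKM was 147, 116, 91.9 and 132 in the 4 animals of day 14, and 102, 117, 109.6 and 104 on day 17. On day 20 it was 76.8, 101, 98.5 and 112, and on day 23 it was 147, 144, 128 and 125. All 4 animals of day 23 thus lay above all 4 of day 17 and all 4 of day 20, while day 14 overlapped with every later day. From day 20 to day 23 the mean went from 96.9 ± 14.6 to 136 ± 11.4 RPKM (SD, n = 4), a log2 fold change of 0.49 (SE 0.13) with an unadjusted p of 0.0021 and an adjusted p of 0.52 in limma.

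Catalase and the glutathione peroxidases act on hydrogen peroxide and lipid peroxides. CAT, the peroxisomal catalase, had day means of 70.3 to 78.2 RPKM. GPX4 stood at 735, 756, 611 and 599 RPKM on day 14, at 688, 571, 688 and 559.5 on day 17, at 523, 550.3, 664 and 588 on day 20 and at 595, 691, 555 and 519 on day 23. The 4 days overlapped, and the log2 fold change on day 23 against day 14 was -0.19 (95% interval -0.45 to 0.06). GPX1, the cytosolic selenoenzyme, and GPX3, the secreted one, varied widely between animals of the same day. GPX1 ran from 156 to 362.5 RPKM and GPX3 from 134 to 472.5, with the highest GPX3 value in an animal of day 14. GPX7 and GPX8 are peroxidases of the endoplasmic reticulum, and GPX7 had day means of 36.8 to 42.6 RPKM.

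GPX8 had RPKM of 36.5, 40.5, 51.5 and 42.2 on day 14, of 43.0, 48.3, 39.4 and 40.4 on day 17, and of 35.7, 39.7, 45.0 and 49.2 on day 20. On day 23 it was 35.6, 34.2, 33.6 and 39.2, so that every animal of day 23 lay below every animal of day 17. Its log2 fold change between those days was -0.25 (SE 0.11, unadjusted p 0.038, adjusted p 0.39 in limma). None of the 5 glutathione peroxidases had a value above day 14 on day 20 or on day 23, in log2 fold change. Of all genes tested, 45.2% and 43.3% did. For GPX8 on day 20 the sign depended on the scaling, at -0.009 here and 0.005 with median-ratio scaling. Their summed level on days 14, 17, 20 and 23 was 1307 ± 127, 1177 ± 93.3, 1073 ± 79.5 and 1089.5 ± 132 RPKM (SD, n = 4). All 4 animals of day 20 lay below all 4 of day 14 in this sum, and those of day 23 overlapped with day 14. GPX4, which overlapped between the days, made up 40.4% to 63.6% of it. Other family sums also lay apart from day 14. Glutathione transferases did so on day 23 (1882 to 2316 against 1356.5 to 1776 RPKM). Quinone and haem enzymes did so on day 20 (97.2 to 111.9 against 74.4 to 93.8 RPKM). No share of such separations over sums of other genes was computed.

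Most peroxiredoxins reduce peroxides with electrons from thioredoxin. PRDX2 had RPKM of 348, 446, 405 and 394 on day 14, of 409, 409.5, 434 and 352 on day 17, of 335, 419, 309 and 363 on day 20 and of 353, 364, 328 and 278 on day 23. Day 23 overlapped with both early days, and its log2 fold change was -0.27 against day 14 (unadjusted p 0.033, adjusted p 0.34) and -0.28 against day 17 (adjusted p 0.35, limma). PRDX3 had RPKM of 312, 256, 329.7 and 283 on day 14, of 316, 236, 261 and 252 on day 17, of 249, 241, 259 and 262 on day 20 and of 286, 300.2, 277 and 305 on day 23. The 4 values of day 20 were close to each other and below all 4 of day 23, a log2 fold change of 0.21 from day 20 to day 23 (unadjusted p 0.047, adjusted p 0.70 in limma).

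PRDX4, the peroxiredoxin of the endoplasmic reticulum, was the highest on day 23. Its RPKM was 53.5, 50.3, 59.08 and 51.1 on day 14, 56.4, 54.9, 60.2 and 45.0 on day 17, 50.6, 65.5, 58.4 and 49.4 on day 20 and 61.0, 70.3, 74.5 and 59.09 on day 23. Day 23 lay above day 14 without overlap, by the narrowest of gaps between 59.08 and 59.09 RPKM. The log2 fold change was 0.30 (SE 0.11), with an unadjusted p of 0.016 and an adjusted p of 0.26 in limma. PRDX5, found in mitochondria and peroxisomes, was at 138 to 154 RPKM on day 20 and at 159 to 186 on day 14, again with no overlap (log2 fold change -0.20, unadjusted p 0.045, adjusted p 0.60 in limma). PRDX1 and PRDX6, both cytosolic, had day means of 145 to 153 and 179.8 to 199 RPKM. SRXN1, which restores overoxidised peroxiredoxins, had day means of 24.3 to 27.7 RPKM.

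**Figure D3:**
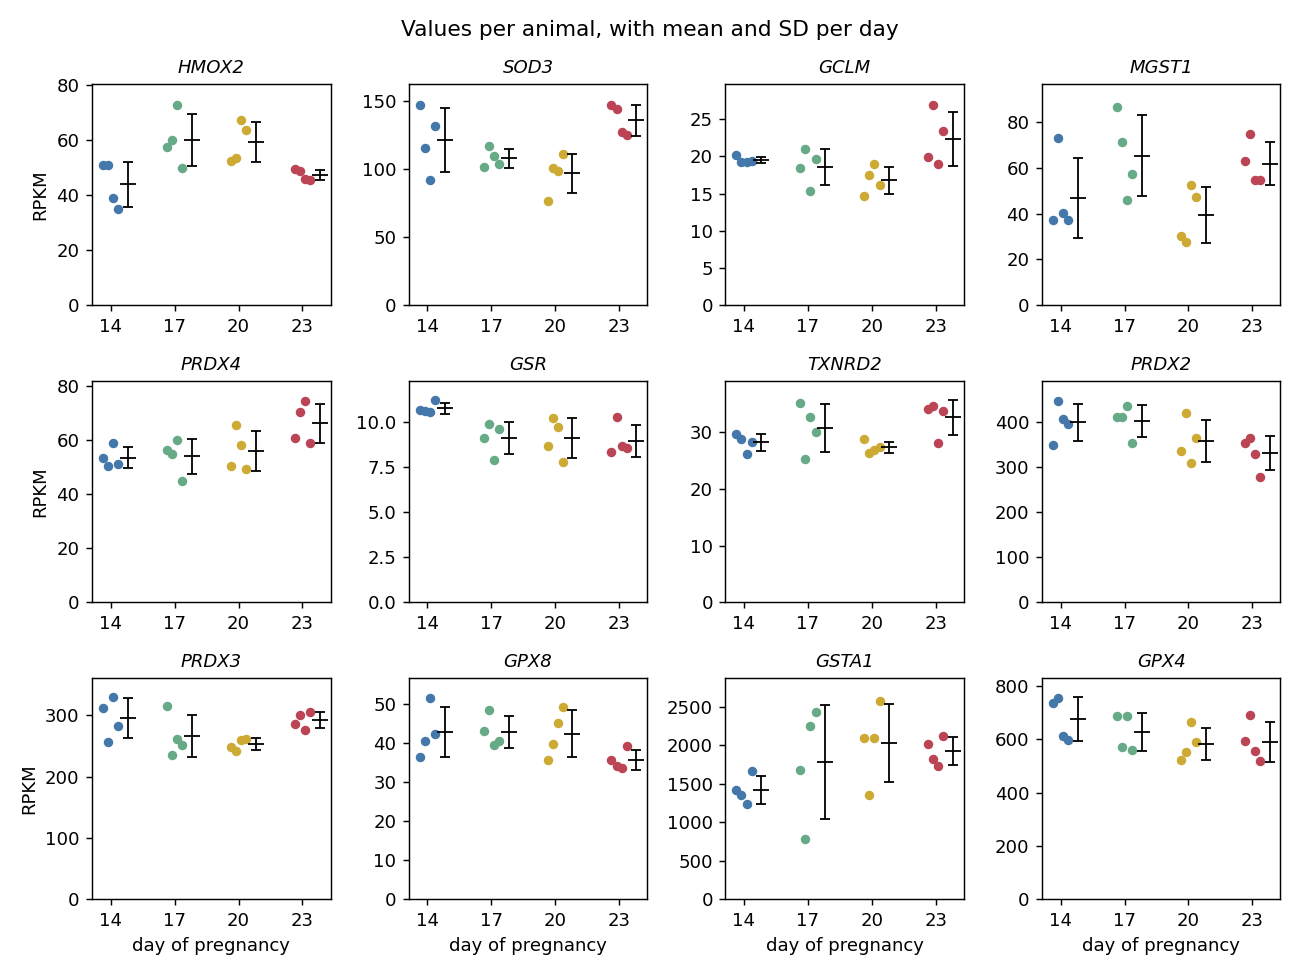
RPKM of 12 genes by day of pregnancy, with 1 panel per gene; coloured points are the 4 animals of a day, and the black mark and bar beside them are the mean and SD. SOD3 of day 23 lies above days 17 and 20, GSR of day 14 lies above all later days, and GSTA1 varies most on day 17, from 777 to 2430.0 RPKM.

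Thioredoxins and their reductases feed most of the peroxiredoxins. TXN, the cytosolic thioredoxin, had day means of 237 to 279 RPKM, and TXN2, the mitochondrial one, of 264 to 279. TXNRD1, the cytosolic reductase, had day means of 24.7 to 26.3 RPKM. TXNRD2, the mitochondrial reductase, was at 29.7, 28.8, 26.1 and 28.3 RPKM on day 14, at 35.2, 25.3, 32.8 and 30.0 on day 17, at 28.8, 26.4, 26.9 and 27.4 on day 20 and at 34.1, 34.7, 28.1 and 33.7 on day 23. In 3 of 4 animals day 23 was above every value of days 14 and 20, and the animal at 28.1 lay among them. Its log2 fold change from day 20 to day 23 was 0.24 (unadjusted p 0.019, adjusted p 0.63 in limma). TXNIP, which binds and inhibits thioredoxin, was at 131 to 227 RPKM on day 14 and at 166 to 336 on day 23, a log2 fold change of 0.57 (SE 0.23, unadjusted p 0.026, adjusted p 0.32 in limma) with overlapping groups.

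Glutathione is built by the glutamate-cysteine ligase, of which GCLC is the catalytic and GCLM the modifier subunit, and by GSS. GCLM was at 20.2, 19.2, 19.2 and 19.4 RPKM on day 14 and at 18.5, 20.9, 15.3 and 19.6 on day 17. On day 20 it was at 14.7, 17.4, 18.967 and 16.2, and on day 23 at 19.9, 26.96, 18.967 and 23.3. Day 20 lay below day 14 without overlap. It did so below day 23 as well only beyond the third decimal, since 18.967 RPKM is both its highest value and the lowest of day 23. From day 20 to day 23 the log2 fold change was 0.38 (SE 0.11, unadjusted p 0.0040, adjusted p 0.54 in limma). GCLC had day means of 25.8, 20.5, 31.3 and 27.2 RPKM; its log2 fold change of 0.50 from day 17 to day 20 (adjusted p 0.66, limma) became 0.23 without day 20 replicate 2, the animal with the highest value (51.3 RPKM). GSS, which adds glycine, had day means of 16.5 to 17.5 RPKM.

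GSR, which returns oxidised glutathione to its reduced form, had its highest values on day 14. Its RPKM was 10.6, 10.6, 10.5 and 11.2 on day 14, 9.10, 9.88, 7.88 and 9.57 on day 17, 8.66, 10.2, 9.71 and 7.75 on day 20 and 8.31, 10.2, 8.65 and 8.56 on day 23. All 4 animals of day 14 lay above all 12 later ones. The log2 fold changes against day 14 were -0.22, -0.23 and -0.24 on days 17, 20 and 23 (SE 0.09 each), with unadjusted p-values of 0.029, 0.026 and 0.018 and adjusted p-values of 0.65, 0.53 and 0.28 (limma). These 3 comparisons share the day 14 animals. GSR was the 1 gene of 36 with no overlap on day 17 against day 14 (background 3.27%). On day 20 against day 14 there were 4 such genes, HMOX2 higher and GSR, PRDX5 and GCLM lower (background 5.21%), and on day 23 against day 14 there were 3, PRDX4 and GSTA1 higher and GSR lower (background 6.96%).

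Between the later days the genes without overlap were 0 of 36 on day 20 against day 17 (background 4.56%) and 3 on day 23 against day 17 (background 6.5%). These 3 were SOD3, higher, and HMOX2 and GPX8, lower. On day 23 against day 20 there were 5, or 13.9% of the 36 (background 4.45%): SOD3, MGST1, PRDX3 and, by the near tie given above, GCLM were higher and HMOX2 was lower. None of the 5 passed the adjusted threshold in limma, where their adjusted p-values were 0.52 to 0.70.

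Glutathione transferases conjugate glutathione to reactive compounds, and those of the alpha class also reduce lipid hydroperoxides. GSTA1 was at 1421, 1356, 1238 and 1662 RPKM on day 14 and at 1682, 777, 2247 and 2430.0 on day 17. On day 20 it was at 2095, 1354, 2099 and 2577, and on day 23 at 2023, 1829, 1726 and 2127. Every animal of day 23 lay above every animal of day 14, and the lowest value of all was day 17 replicate 2. The log2 fold changes against day 14 were 0.21, 0.49 and 0.44 on days 17, 20 and 23, with 95% intervals of -0.40 to 0.82, -0.12 to 1.10 and -0.17 to 1.05 and adjusted p-values of 0.87, 0.72 and 0.55 (limma). The value on day 17 rested on single animals, being 0.57 without day 17 replicate 2, 0.06 without replicate 3 and 0.02 without replicate 4.

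GSTA1 made up 16.3% to 38.8% of the summed RPKM of the 37 genes in a library. The animal with the smallest share, day 17 replicate 2, was also the lowest of the 16 in GSTA4 (29.7 RPKM) and GSTM1 (25.9 RPKM), an alpha- and a mu-class transferase. It had the highest sum of 10 fibroblast markers of all 16 (8431 RPKM, against 2657 to 7361 in the others) and of 10 pericyte and smooth muscle markers (948 RPKM, against 384 to 901 in the others), and the lowest sum of 10 macrophage and monocyte markers (133 RPKM, with the next lowest at 184). Its sum of luteal steroidogenic markers was 17720 RPKM. The lowest such sum was 15910 RPKM, in day 17 replicate 4, where GSTA1 was at 2430.0 RPKM. The part of these cell types in the transferase values was not tested. GSTA4 had day means of 47.5 to 57.7 RPKM and GSTM1 of 42.2 to 57.8, with log2 fold changes on day 23 against day 14 of 0.29 and 0.47 and adjusted p-values of 0.60 and 0.44 (limma). The alpha and mu transferases have near-identical copies between which reads can be split, so their separate values are uncertain; the second GSTM1 row had a mean of 34.3 RPKM. GSTK1, the kappa-class transferase of mitochondria and peroxisomes, had day means of 46.9 to 54.8 RPKM.

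MGST1, a membrane-bound glutathione transferase, had the widest range of day means on the log2 scale. It was at 37.06, 73.2, 40.4 and 37.09 RPKM on day 14, at 86.7, 71.3, 46.2 and 57.6 on day 17, at 30.4, 27.8, 52.6 and 47.1 on day 20 and at 63.2, 74.8, 54.83 and 54.78 on day 23. Day 23 lay above day 20 without overlap, with a log2 fold change of 0.68 (SE 0.25, unadjusted p 0.016, adjusted p 0.62 in limma). Day 20 against day 17 gave -0.73 (unadjusted p 0.011, adjusted p 0.45), and day 17 against day 14 gave 0.49, or 0.72 without day 14 replicate 2, the animal at 73.2. MGST2 and MGST3, of the same family, had day means of 21.5 to 25.2 and 27.4 to 31.5 RPKM.

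HMOX2, the constitutive haem oxygenase, had its highest values on the middle days. Its RPKM was 50.8, 51.1, 38.99 and 35.0 on day 14, 57.6, 59.9, 72.6 and 50.0 on day 17, 52.5, 53.6, 67.3 and 63.5 on day 20 and 49.4, 48.7, 46.0 and 45.6 on day 23. Day 20 lay above days 14 and 23 without overlap, and day 23 lay below day 17. The log2 fold changes against day 14 were 0.45 on day 17 (SE 0.13, unadjusted p 0.0038, adjusted p 0.61) and 0.43 on day 20 (unadjusted p 0.0049, adjusted p 0.31, limma). Against days 17 and 20, day 23 gave -0.32 and -0.31, with adjusted p-values of 0.35 and 0.67 (limma). HMOX1, the inducible haem oxygenase, had day means of 24.6 to 27.4 RPKM, and NQO1, a quinone reductase, of 17.4 to 19.7.

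The regulators were the most even of all. NFE2L2, which encodes NRF2, ran from 37.6 to 44.7 RPKM over the 16 animals, a highest value 1.19 times the lowest. KEAP1 ran from 35.1 to 42.9 RPKM, or 1.22 times. Their within-day SD on the log2 scale was 0.07 and 0.09, the smallest of the 36 genes, where the median was 0.17 (0.18 over all genes tested, and 0.15 over those at or above the lowest tested antioxidant gene in mean RPKM). The largest within-day SD was that of GPX3, at 0.46, and of GSTA1, at 0.44. The range of the 4 day means was 0.04 for KEAP1 and 0.73 for MGST1. Its median was 0.22 over the 36 genes and 0.21 over all genes tested. Over those at or above the lowest tested antioxidant gene in mean RPKM it was 0.19.

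**Figure D4:**
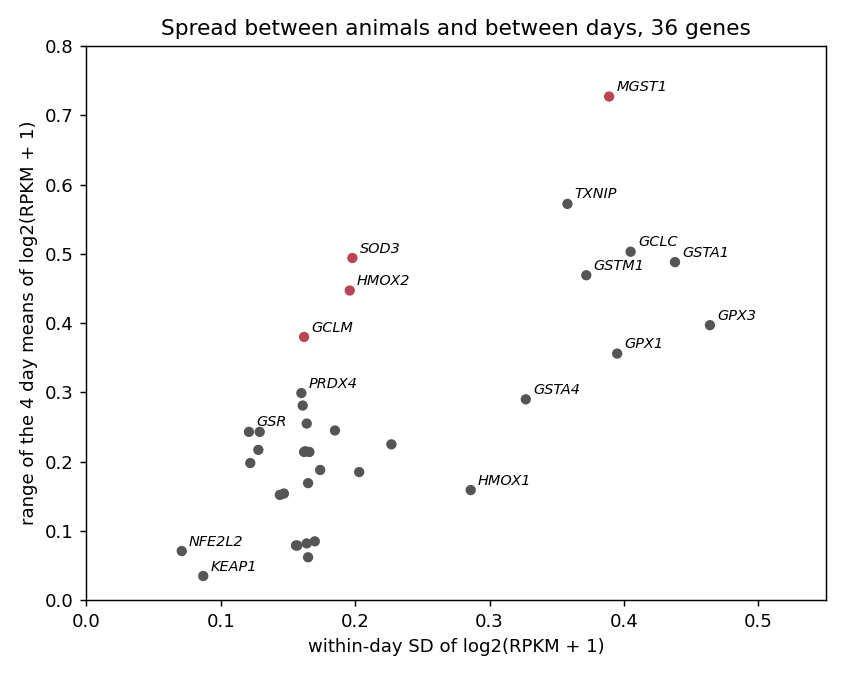
Range of the 4 day means (vertical axis) against the within-day SD (horizontal axis), both of log2(RPKM + 1), for the 36 tested genes; red marks the 4 genes with an unadjusted F test p under 0.05. HMOX2, SOD3, GCLM and MGST1 are red, NFE2L2 and KEAP1 lie at the lower left, and GSTA1 and GPX3 have the largest spread within a day.

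Of 9 luteal steroidogenic markers tested, 8, 7 and 5 were lower on days 17, 20 and 23 than on day 14. Of all genes tested, 53.5%, 45.2% and 43.3% were higher on those days. The unadjusted p was under 0.05 for 1, 2 and 3 of the 9 (limma, 7.57%, 8.11% and 12.6% over all genes). All of these were lower except 1 on day 23. Their sums overlapped, at 20020 to 22300 RPKM on day 14 and 15910 to 21740 on day 17. Markers of several other cell types were not level over the same days either. Fibroblast markers summed to 4035 to 6496 RPKM on day 14 and 2657 to 7344 on day 23, with overlap between all days. For 0 of these 10 was the unadjusted F test p under 0.05 (limma, 11.7% over all genes). The sum of 10 macrophage and monocyte markers was 364 to 524 RPKM on day 20, above the 184 to 278 of day 14 and the 204 to 336 of day 23 but not the 133 to 451.5 of day 17, with all 10 markers lower on day 23 than on day 20 in log2 fold change, 5 of them with an unadjusted p under 0.05 (7% over all genes). The sum of 10 T and natural killer cell markers was 24.0 to 39.1 RPKM on day 17 and 18.4 to 53.4 on day 20, against 13.6 to 27.6 on day 14. Endothelial markers summed to 433 to 491 RPKM on day 23 and to 473 to 707 on day 14, with all 10 lower on day 23. In that comparison 43.3% of all genes tested were higher. Follicle and surface epithelium markers summed to 109.5 to 128 RPKM on day 14, above the 75.1 to 103 of day 17 and the 64.0 to 105 of day 20, and to 79.0 to 112 on day 23. Red blood cell markers summed to 8.82 to 26.9 RPKM on day 17 and to 3.05 to 7.03 on day 14, with HBA, HBM and SLC4A1 listed at 0 in all animals of day 14. All 10 pericyte and smooth muscle markers were lower on day 23 than on day 20 in log2 fold change, with sums of 384 to 730.0 and 505.5 to 901 RPKM. Between those days 44.9% of all genes tested were higher on day 23. No macrophage, T and natural killer cell or endothelial marker was at 0 in its mean, and 0 markers of any list passed the adjusted threshold in any comparison (limma). The unadjusted p was under 0.05 for 7 of 10 macrophage markers and 8 of 10 T and natural killer cell markers on day 20 against day 14, all higher (8.11% over all genes). For endothelial markers it was so for 2 of 10 on day 23 against day 14 (12.6% over all genes) and for 6 of 10 on day 23 against day 17 (11.7%), all lower. As with the family sums, no share of separations over sums of other genes was computed for marker sums. In the F test the unadjusted p was under 0.05 for 4 of 9 follicle and surface epithelium markers (limma, 11.7% over all genes). The same was found for 1 of 3 red blood cell and 2 of 10 pericyte and smooth muscle markers. The part of these cells in the values of HMOX2, SOD3, GCLM, MGST1, GSR and GPX8 was not tested.

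The authors' deposited table also gives p-values, raw and adjusted, for a comparison that the headers do not name. In it 527 of 15806 genes had an adjusted p under 0.05 (3.33%), and 0 of the 37 antioxidant genes did. An unadjusted p under 0.05 in the authors' deposited table was found for 7 of the 37, against 11.7% of 21032 genes: SOD3 (0.0039, adjusted 0.083), HMOX2 (0.010, adjusted 0.15), GCLM, MGST1, PRDX4, PRDX3 and TXNRD2.

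Neighbouring genes of the pathway were counted on 6 further lists, and 0 of their tested genes passed the adjusted threshold in limma in any comparison. Glutathione synthesis, transport and turnover had 14 tested genes, of which 3 had an unadjusted F test p under 0.05, where the share over all genes was 11.7%. They were GGCT, which degrades gamma-glutamyl peptides (3.66 ± 1.13 RPKM on day 14 and 2.37 ± 0.13 on day 23), OPLAH, which returns 5-oxoproline to glutamate, and CHAC1, which degrades glutathione. CHAC1 was low, with a mean of 0.94 RPKM, and on day 20 its SD exceeded its mean (2.24 ± 2.31 RPKM, n = 4). Of 25 other peroxidases and transferases 1 had an unadjusted F test p under 0.05, fewer than the 11.7% of all genes. It was TXNRD3, a reductase of thioredoxin and glutathione, at 9.62 ± 1.19, 11.6 ± 0.90, 8.96 ± 0.71 and 8.49 ± 0.76 RPKM on the 4 days (SD, n = 4; F test p 0.0030, adjusted p 0.22 in limma). GSTM3, a further mu-class transferase, was at 287 ± 87.0 RPKM on day 14 and at 424 ± 91.5 on day 23, with an adjusted p of 0.33 (limma). GSTZ1, the zeta-class transferase, had a mean of 5.81 RPKM and an adjusted F test p of 0.53 (limma).

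NADPH supply, the source of electrons for GSR and the thioredoxin reductases, had 17 tested genes. FDXR, counted among them, is on the list of luteal steroidogenic markers as well and is not a source of NADPH. Values above day 14 were found in 5 of 17 on day 17, 2 on day 20 and 5 on day 23, beside 53.5%, 45.2% and 43.3% of all genes tested, and the median log2 fold changes were -0.16, -0.14 and -0.14. NNT, the mitochondrial transhydrogenase that makes NADPH from NADH, was at 46.1 ± 0.90 RPKM on day 14 and at 37.5 ± 5.78, 36.7 ± 3.60 and 39.2 ± 2.08 on days 17, 20 and 23 (F test p 0.017, adjusted p 0.32 in limma). IDH1, which makes NADPH in the cytosol, was at 197 ± 22.2 RPKM on day 14 and at 159 ± 25.4 on day 20, and PGLS, of the pentose phosphate pathway, at 39.9 ± 3.85 and 35.9 ± 0.80.

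Of 17 tested genes for selenoproteins and their synthesis, 2 had an unadjusted F test p under 0.05, about the 11.7% of all genes. SELENOP, the secreted selenium carrier, was at 386 ± 43.8, 351 ± 31.6, 482 ± 89.9 and 599.6 ± 167 RPKM on days 14, 17, 20 and 23 (F test p 0.0029, adjusted p 0.22 in limma). SCLY, which frees selenium from selenocysteine, was at 9.59, 13.3, 12.4 and 10.03 RPKM on the 4 days, and SELENOM, of the endoplasmic reticulum, at 193, 206, 185 and 162. Of 23 regulators and further known targets of NRF2, EPHX1, an epoxide hydrolase, was at 32.4 ± 7.53 RPKM on day 14 and at 21.9 ± 3.58 on day 23, TFRC, the transferrin receptor, at 18.5 ± 3.98 and 13.9 ± 8.02, and NFE2L3, a relative of NRF2, at 1.60 ± 0.44 and 6.54 ± 7.22 (SD, n = 4). Of 15 sources of superoxide and peroxide, 3 had an unadjusted F test p under 0.05 (11.7% over all genes), and 13 had lower values on day 23 than on day 20, while 44.9% of all genes tested were higher. NOXA1, an NADPH oxidase activator, was at 3.71 RPKM on day 14 and 4.89 on day 17, and AOC3, an amine oxidase, at 47.6 and 59.8. The adjusted F test p-values of these last 5 genes ran from 0.23 for NOXA1 to 0.45 for NFE2L3 (limma).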

How the data were processed

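Messenger RNA was measured in 16 corpora lutea, grouped by the day in the labels. Libraries were made with a stranded mRNA kit, per the labels' protocols. Tools in the submitters' processing notes are featureCounts 1.5.3, HISAT2 2.1.0, DESeq2, bedtools 2.26.0 and FastQC, with the build ARS-UCD1.2. Their settings, strand among them, are not given in the sources used here. Per gene and library the authors deposited RPKM, and per gene a raw and an adjusted p-value. RPKM has 1 total per library, so a few very abundant genes can lower the values of all others. Each gene's values were whole reads (27233 genes, tolerance 0.001), from which depth was recovered.

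Values were analysed as log2(RPKM + 1), which understates the changes of low genes. Genes with at least 1 RPKM in at least 4 libraries were tested with limma 3.58.1 in R 4.3.3 (eBayes with an intensity trend, 16 libraries in 1 model, 12 residual degrees of freedom, two-sided, Benjamini-Hochberg over 13361 genes). The code was run on simulated data with independent genes and changes larger than any of the antioxidant genes. That run does not bear on changes of the size reported here. The symbols, the further lists and the cell type markers were chosen with earlier results of these data known. Named with all 16 values are the 10 genes with the smallest F test p and the 4 with the highest mean RPKM; further lists name the 3 genes with the smallest F test p, of which 1 is not reported here. Alternatives were other pseudocounts, filters, scalings, a replicate block, only the 8 libraries compared, each library left out, and voom on recovered reads, which was chosen after seeing the data. Coordinates and sequences were not used here.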

Additional observations from a re-analysis of the deposited data

Results flagged for a closer look

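In 9 of 148 groups of 4 animals, 1 for each gene and day, a single animal stood far from the other 3; chance gives about 1 in 20. Catalase (CAT) on day 20 was at 82.34 RPKM in replicate 4, with the nearest other animal at 67.06. MGST2, in the same animal, was at 30.34 RPKM, against 22.03 in the nearest. In day 20 replicate 1, PRDX5 was the lowest of its day at 138.26 RPKM (nearest 151.82) and TXNRD1 the highest at 27.88 (nearest 23.88). TXN was at 208.34 RPKM in day 17 replicate 4 (nearest 273.74), and GCLC at 28.02 in day 17 replicate 2 (nearest 18.69). TXNRD2 in day 23 replicate 3 stood at 28.12 RPKM, below 33.71 in the nearest. MGST1 in day 14 replicate 2 was at 73.18 RPKM (nearest 40.44), and GSR in day 14 replicate 4 at 11.19 (nearest 10.64), a small step in a tight group. The 9 values came from 7 animals.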

How the results depend on the processing

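The count of antioxidant genes past the adjusted threshold was 0 in all 6 comparisons and in the F test under every alternative run (24 for the F test, 25 for each comparison), with any 1 animal left out as well (lowest 0, highest 0). The smallest adjusted p they reached was 0.13, for day 23 against day 14 without day 23 replicate 3. The 36 fold changes checked were those with the smallest unadjusted p in each comparison (limma), with GSTA1 and GPX4 against day 14 added. They kept their direction in all 900 alternative values. As they were picked from these same data, this is no separate test of their direction. For the 36 tested genes, the splits above and below day 14 did depend on the scaling, as given above. Over all genes, leaving out day 17 replicate 3 gave up to 32 calls, on day 20 against day 14. With the replicate block the count stayed at 0, with 2, 4, 6, 2, 6 and 7 unadjusted p-values under 0.05 (limma). The replicate numbers share no stated source. Same-numbered animals had a median correlation of 0.03 (range -0.23 to 0.21, 24 pairs). For animals with different numbers it was -0.007 (range -0.255 to 0.212, 72 pairs). Neither set compares the gene levels as such, which were ordered much alike in all animals. Whether same-numbered animals share more than a number cannot be told from these correlations. With 4 animals a day, the median 95% interval reached 1.19-fold either way, before adjustment. Larger differences also missed the adjusted threshold, such as a log2 fold change of -0.73 for MGST1.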
